A study of Homo sapiens with 28 samples.

Results

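H3K27ac peak lists of SW872 cells whose peak names carry TAZ4SA were compared with those whose peak names carry YAP5SA. The 4 lists were chosen by the construct written in the peak names, 2 for each construct, out of 14 lists in the series. SW872 is an established human liposarcoma cell line. Stable lines were made with retroviral pBabeNeo vectors carrying Flag-tagged constructs and were kept as G418-selected populations, so that each line is a pool of transduced cells. In the TAZ4SA and YAP5SA constructs, serines of TAZ and YAP that the LATS kinases phosphorylate are replaced by alanine. Per the labels, the cells were grown to 90% confluence 48 h before collection, and 2 libraries were made per construct. The methods call the 2 libraries of a construct biological duplicates, from separately transduced cells as stated for the sequencing work in general. The labels do not mark this library by library.

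The naming of these lists is not settled. In all 14 lists the construct in the peak names differed from the construct in the GEO title. The lists with TAZ4SA in the peak names are titled TAZ-CAMTA1, a fusion of the start of TAZ with the end of the transcription factor CAMTA1. Those with YAP5SA in the peak names are titled YAP-TFE3, a fusion of the start of YAP with the end of the transcription factor TFE3. The lists titled TAZ4SA carry the name EV and those titled YAP5SA carry the name TFE3. The peak lists alone hold no value for the transgenes, and the labels could not be checked against them. The lists are therefore called TAZ4SA-named and YAP5SA-named, with the replicate numbers of the titles (the peak names number the TAZ4SA-named lists 2 and 3). If the titles hold, the comparison is between the TAZ and YAP fusions.

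YAP and TAZ are paralogous coactivators at the end of the Hippo pathway. When the pathway is active, LATS kinases phosphorylate them and they are kept in the cytoplasm or degraded. In the nucleus they bind DNA mainly through the TEAD transcription factors and recruit acetyltransferases, often at enhancers far from the genes they act on. Acetylation of lysine 27 of histone H3 (H3K27ac) marks active promoters and enhancers, and ChIP-seq of the mark gives peaks at both. The comparison asks how far the acetylated regions of cells carrying one paralog coincide with those of cells carrying the other.

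The 4 lists differed in length. TAZ4SA-named replicate 1 held 21748 peaks and TAZ4SA-named replicate 2 held 48372. YAP5SA-named replicate 1 held 57505 peaks and YAP5SA-named replicate 2 held 39653. TAZ4SA-named replicate 1 stood apart as the shortest, so the strongest 21748 peaks by −log10 p were taken from each list, which are 100%, 45.0%, 37.8% and 54.8% of the lists in the order above. The weakest peak kept had a −log10 p of 3.45 in TAZ4SA-named replicate 1, 9.41 in TAZ4SA-named replicate 2, 9.89 in YAP5SA-named replicate 1 and 7.52 in YAP5SA-named replicate 2. An equal number of peaks thus did not mean an equal threshold.

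Peak size also differed between libraries of a single name. The median width of the top peaks was 740 bp in TAZ4SA-named replicate 1 against 1924 bp in replicate 2, and 1923.5 bp in YAP5SA-named replicate 1 against 1392 bp in replicate 2. The top peaks covered 24.1, 56.8, 58.7 and 41.4 Mb in the same order of lists. The median number of fragments at the summit, solved from the fold enrichment and the p-value of each peak, was 18, 30, 34 and 24. The narrowest and lowest peaks were those of TAZ4SA-named replicate 1, and the counts of regions are also given without it.

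The top peaks of the 4 lists merged into 27591 regions, where a region is a stretch covered by overlapping peaks and is held by a list if at least 1 bp of a top peak lies in it. Of these, 12258 (44.4%) were held by all 4 lists and are called common regions. Regions held by both TAZ4SA-named lists and by neither YAP5SA-named list numbered 486 (1.76%). Regions held by both YAP5SA-named lists and by neither TAZ4SA-named list numbered 1053 (3.82%). The common regions thus outnumbered the regions of either paralog by far.

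Single libraries accounted for more of the remaining regions than the paralogs did. In 7415 regions (26.9%) a peak came from 1 list, with 1620 from TAZ4SA-named replicate 1, 2281 from TAZ4SA-named replicate 2, 2174 from YAP5SA-named replicate 1 and 1340 from YAP5SA-named replicate 2. A further 2363 regions were held by 1 list of each name, and 4016 by 3 lists. Of those held by 3 lists, 2317 lacked a peak only in TAZ4SA-named replicate 1, while 529 lacked one only in TAZ4SA-named replicate 2, 729 only in YAP5SA-named replicate 2 and 441 only in YAP5SA-named replicate 1. At least 1 list of each paralog held 18637 regions, or 67.5%.

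**Figure D1:**
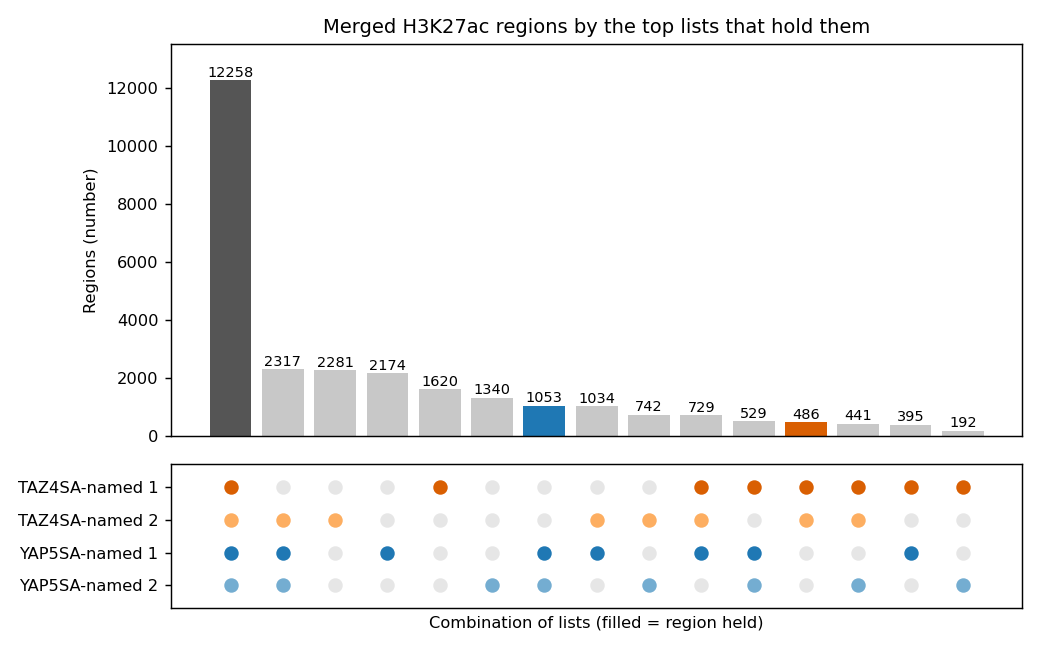
Number of merged regions (y axis) for each of the combinations of the 4 top lists that hold a region, with filled circles below each bar for the lists that do. The grey bar of 12258 regions common to all 4 lists is the tallest, and the regions of both YAP5SA-named lists alone (1053, blue) and of both TAZ4SA-named lists alone (486, orange) are lower than each of the single-list bars.

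Seen from the regions that replicates shared, most were also held by the other paralog. Both TAZ4SA-named lists held 13914 regions, of which 88.1% were in both YAP5SA-named lists and 3.49% in neither. Both YAP5SA-named lists held 16157 regions, of which 75.9% were in both TAZ4SA-named lists and 6.52% in neither. With the short TAZ4SA-named replicate 1 left out, 14600 regions were common to the remaining 3 lists, TAZ4SA-named replicate 2 held 2779 regions that neither YAP5SA-named list held, and both YAP5SA-named lists held 1585 that it lacked. With TAZ4SA-named replicate 2 left out, these counts were 12985, 2362 and 3528. A count from 1 list and a count from 2 lists are not a like comparison, so that neither shows which paralog had more regions of its own.

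The overlap of lists was compared within and between paralogs. As a measure, the Jaccard index was used, which is the base pairs covered by both lists divided by those covered by either. It was 0.367 between the TAZ4SA-named lists and 0.571 between the YAP5SA-named lists. Between paralogs it was 0.357 and 0.444 for TAZ4SA-named replicate 1 against YAP5SA-named replicates 1 and 2, and 0.602 and 0.560 for TAZ4SA-named replicate 2. The index is limited by how unequally 2 lists cover the genome. With full overlap, the TAZ4SA-named pair could reach 0.424, TAZ4SA-named replicate 1 could reach 0.410 and 0.581 with YAP5SA-named replicates 1 and 2, and the other pairs could reach 0.706 to 0.967. Of the base pairs of the smaller list, 90.2% were shared in the TAZ4SA-named pair and 87.9% in the YAP5SA-named pair. Between paralogs it was 90.6% and 83.7% for TAZ4SA-named replicate 1 with YAP5SA-named replicates 1 and 2, and 76.4% and 85.1% for TAZ4SA-named replicate 2. By this share both pairs of one name were above 3 of the 4 pairs of different names.

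Averaged over pairs, the index was 0.469 ± 0.144 (SD, n = 2 pairs) within paralogs and 0.491 ± 0.111 (SD, n = 4 pairs, which share lists) between them, a difference of −0.022 (one-sided exact permutation test over the 3 ways to pair the lists, p = 0.667). The smallest p this design allows is 0.333, so that no result could pass 0.05. The ranges of the within-paralog and between-paralog values overlapped. The sign turned with the share of the smaller list, a measure added after the values were seen, where the mean was 89.0% ± 1.64 (SD, n = 2 pairs) within and 83.9% ± 5.82 (SD, n = 4 pairs) between paralogs (one-sided exact permutation test, p = 0.333). It also turned with 1 kb windows at the summits (0.0046) and without TAZ4SA-named replicate 2 (0.17). No sign of the difference was thus stable.

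The strongest peaks overlapped less than the lists as a whole, and least between the TAZ4SA-named lists. Among the top 100 peaks of each list, 34.0% overlapped between the TAZ4SA-named lists and 52.0% between the YAP5SA-named lists. Between paralogs the top 100 overlapped by 53.0% and 54.0% for TAZ4SA-named replicate 1 against YAP5SA-named replicates 1 and 2, and by 39.0% and 52.0% for TAZ4SA-named replicate 2. At 1000 peaks the shares were 51.2% and 68.4% within the TAZ4SA and YAP5SA names, and between 56.6% and 65.0% across them. The order of the TAZ4SA-named pair as the lowest held up to 10000 peaks, where the shares ranged from 75.4% to 81.2%. With all 21748 peaks they ranged from 73.7% to 82.3%, and the lowest pair was then TAZ4SA-named replicate 1 with YAP5SA-named replicate 2.

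**Figure D2:**
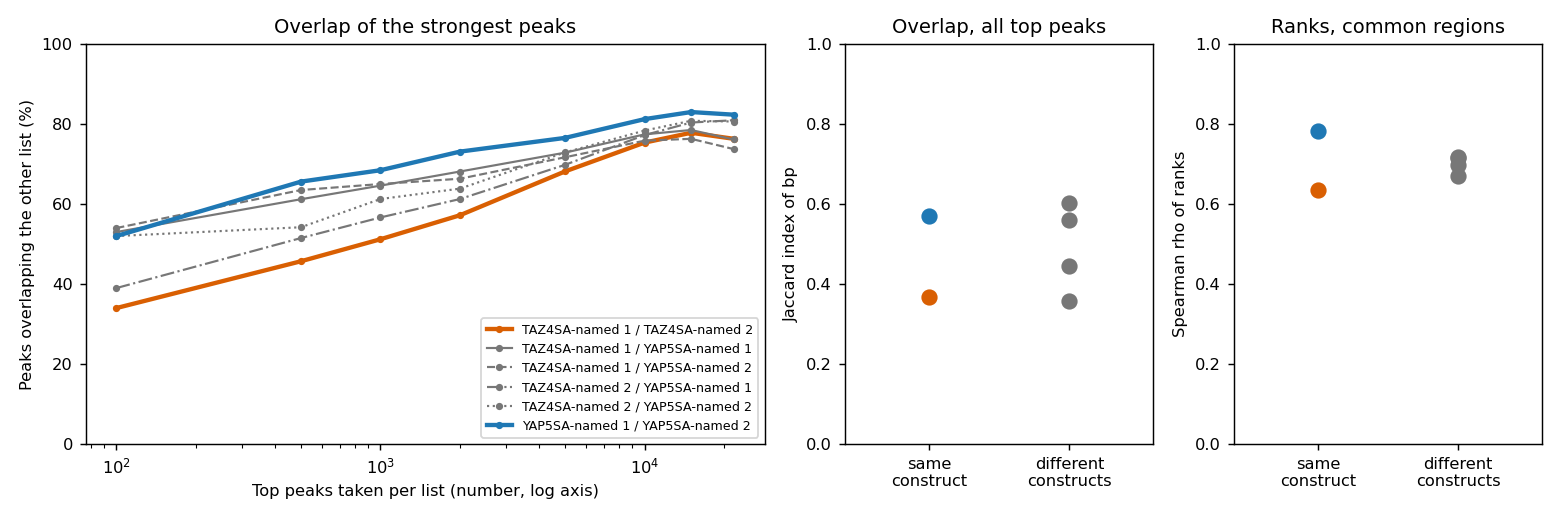
Left, the share of peaks (%, y axis) that overlap the other list of a pair when the same number of strongest peaks is taken from each (x axis, log scale); each line is 1 of the 6 pairs of lists. Middle and right, the Jaccard index of all top peaks and Spearman's rho of the ranks of the common regions, each point 1 pair, where the TAZ4SA-named pair (orange, 0.367 and 0.634) lies low and the YAP5SA-named pair (blue, 0.571 and 0.783) lies among or above the pairs of different constructs (grey).

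Ranks of the 12258 common regions followed each other across all 4 lists. Each region was given the rank of its strongest peak in a list, with rank 1 as the strongest. Spearman's rho between lists, a description across regions that share libraries and are not independent replicates, was 0.634 for the TAZ4SA-named pair and 0.783 for the YAP5SA-named pair. Across paralogs it was 0.715 and 0.699 for TAZ4SA-named replicate 1 with YAP5SA-named replicates 1 and 2, and 0.670 and 0.719 for TAZ4SA-named replicate 2. The mean was 0.709 ± 0.105 (SD, n = 2 pairs) within and 0.701 ± 0.0219 (SD, n = 4 pairs) between paralogs, a difference of 0.0082 (one-sided exact permutation test, p = 0.667). The difference was smaller than the spread between pairs, and its sign turned when either YAP5SA-named list was left out (−0.0745 without replicate 1 and −0.0591 without replicate 2).

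The position of the summit was also much alike in all pairs. The median distance between the summits of a common region was 121 bp in the TAZ4SA-named pair, 81.5 bp in the YAP5SA-named pair, and 87, 94, 103 and 106 bp in the pairs of different paralogs. Summits lay within 200 bp of each other in 60.8% of regions for the TAZ4SA-named pair and in 69.4% for the YAP5SA-named pair, with 63.8% to 67.4% between paralogs. Again the across-paralog pairs lay between the same-paralog ones.

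When ranks were averaged over the 2 lists of a paralog, the strongest and weakest regions coincided most. The common regions were split into 4 equal groups by mean rank for each paralog. Of the strongest TAZ4SA-named group, 76.3% were in the strongest YAP5SA-named group. Of the weakest TAZ4SA-named group, 62.7% were in the weakest YAP5SA-named group. The middle groups kept 47.9% and 41.8% of their regions. A middle group has neighbours on both sides and an end group on a single side, so that lower shares in the middle can follow from the grouping. Opposite ends were rare, with 7 regions in the strongest TAZ4SA-named and weakest YAP5SA-named group and 13 the other way around.

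**Figure D3:**
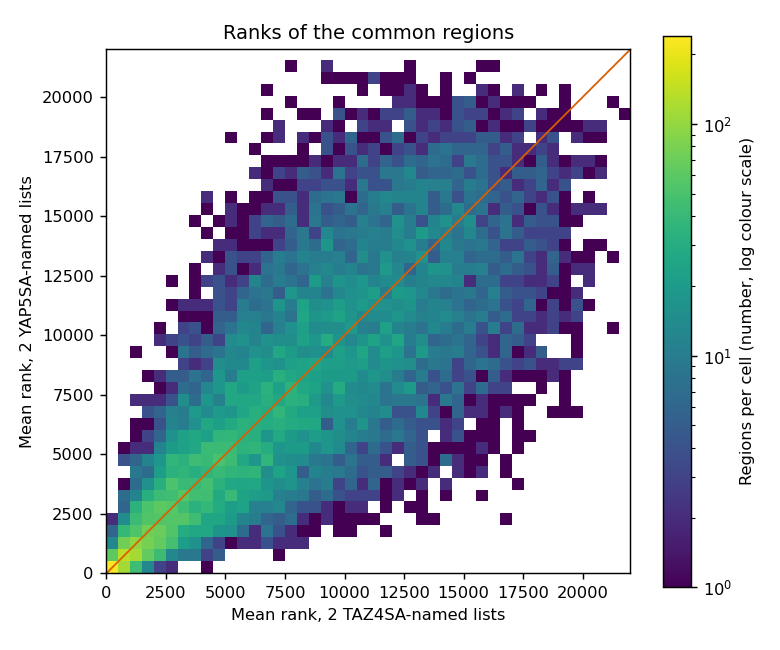
Mean rank of each common region in the 2 TAZ4SA-named lists (x axis) against its mean rank in the 2 YAP5SA-named lists (y axis), with rank 1 strongest and colour for the number of regions per cell (log scale). Regions crowd along the line of equal ranks near the origin and spread out at weaker ranks.

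The strongest common regions had high values in every list. The region at chr5:137908768-137913003 (GRCh37/hg19, 4236 bp) held rank 1 in all 4 lists. Its fold enrichment over background at the summit was 28.4 and 32.0 in the TAZ4SA-named lists and 48.1 and 27.4 in the YAP5SA-named lists, with 210, 247, 227 and 260 fragments. The folds of the 2 names overlapped, and the highest came from YAP5SA-named replicate 1.

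Next in order was chr7:2392770-2396175, with ranks 5, 2, 5 and 6 in TAZ4SA-named replicates 1 and 2 and YAP5SA-named replicates 1 and 2 and folds of 21.3, 40.6, 36.4 and 22.6. The region chr5:133509910-133513558 held ranks 4, 3, 4 and 8. The others of the first 10 by their worst rank lay on chromosomes 1, 4, 5, 7 and 11, with a worst rank of 39. All 10 were also held by the other 10 lists of the series at some rank. These regions were thus held in every list of the series.

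The widest common regions were chosen after their values were seen. The region chr11:12215987-12259766 spanned 43780 bp and was made of 11, 4, 3 and 7 peaks in the 4 lists. The region chr7:55114343-55157458 spanned 43116 bp, with 9, 1, 3 and 8 peaks. Its strongest peak ranked 479 and 639 in the TAZ4SA-named lists and 42 and 417 in the YAP5SA-named lists. In YAP5SA-named replicate 1 its fold was 38.0, against 11.1, 22.5 and 16.2 in the other lists, so that 1 library set it apart. Where one list has a single broad peak, the short list has many, and the width of a merged region therefore depends on the broadest list.

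Regions of one paralog alone came from the weak end of the lists. The median of the worse of the 2 own ranks was 18158.5 for TAZ4SA-named only regions and 18137 for YAP5SA-named only regions, against a median worst rank of 10430.5 over the 4 lists for common regions. Both own ranks were within the first 10000 for 9 of 486 (1.85%) TAZ4SA-named only and 27 of 1053 (2.56%) YAP5SA-named only regions. All 4 ranks were within the first 10000 for 5846 common regions (47.7%).

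Fold enrichment was lower at these regions, which is no separate result, since fold and −log10 p describe the same peaks. The median fold of TAZ4SA-named only regions was 3.81 in replicate 1 and 6.61 in replicate 2, where common regions had 5.59 and 11.4. For YAP5SA-named only regions it was 6.11 in replicate 1 and 5.30 in replicate 2, where common regions had 10.3 and 8.17. The fragments at the summit were 13 and 21 for the former and 25 and 18 for the latter, against 23, 41, 46 and 32 at common regions. In their own lists the regions of one paralog were lower than the common ones, and both classes were chosen by rank in these same lists.

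Most regions of one paralog had a weaker peak in the full lists of the other. For the 486 TAZ4SA-named only regions, YAP5SA-named replicate 1 had a peak below its top 21748 in 87.0%, at a median rank of 28014, and YAP5SA-named replicate 2 in 63.4%, at a median rank of 26972.5. Both YAP5SA-named lists had such a peak in 280 regions, 1 of them in 171 and neither in 35. For the 1053 YAP5SA-named only regions, TAZ4SA-named replicate 2 had a weaker peak in 842 (80.0%), at a median rank of 27401. TAZ4SA-named replicate 1 could add none, since its whole list was used. The TAZ4SA-named only regions with no YAP5SA-named peak at any rank were 35 of 27591 regions (0.127%), and the YAP5SA-named only regions with no TAZ4SA-named peak were 211 (0.765%). These 2 counts were made against lists of unequal length and are not a like comparison. Without TAZ4SA-named replicate 1 they were 553 and 266, and without TAZ4SA-named replicate 2 they were 821 and 3370, each from 1 TAZ4SA-named list and 2 YAP5SA-named lists. The 211 thus rested mainly on the longer TAZ4SA-named list.

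Among regions with no peak of the other paralog, the TAZ4SA-named ones were weak. The first by its worse rank was chr14:91790095-91790682 (588 bp), at rank 11659 with a fold of 4.69 in replicate 1 and at rank 10751 with a fold of 8.73 in replicate 2. It was followed by chr16:3208162-3208796 (635 bp), at ranks 14270 and 13849, and by chr7:2702516-2703832 (1317 bp), at ranks 7893 and 14915. The worse ranks of the first 10 ran to 17068. Each of these 10 regions had a peak in 2 to 8 of the other 10 lists of the series.

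The YAP5SA-named counterparts included stronger regions, but this is not a like comparison. They led 211 regions, against 35 for the TAZ4SA-named ones. The 211 were sought against lists of 21748 and 48372 peaks, and the 35 against lists of 57505 and 39653. The first YAP5SA-named region, chr6:75912782-75915922 (3141 bp), stood at rank 5765 with a fold of 10.6 in replicate 1. In replicate 2 it stood at rank 4993 with a fold of 10.4. The second, chr2:237651799-237654515 (2717 bp), stood at ranks 7469 and 8087 with folds of 10.25 and 8.12. The third, chr20:42779433-42784139 (4707 bp), stood at ranks 9409 and 9641 with folds of 7.64 and 6.19. Both replicates were alike in rank at these regions, and the first 10 had a peak in 1 to 9 of the other 10 lists.

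**Figure D4:**
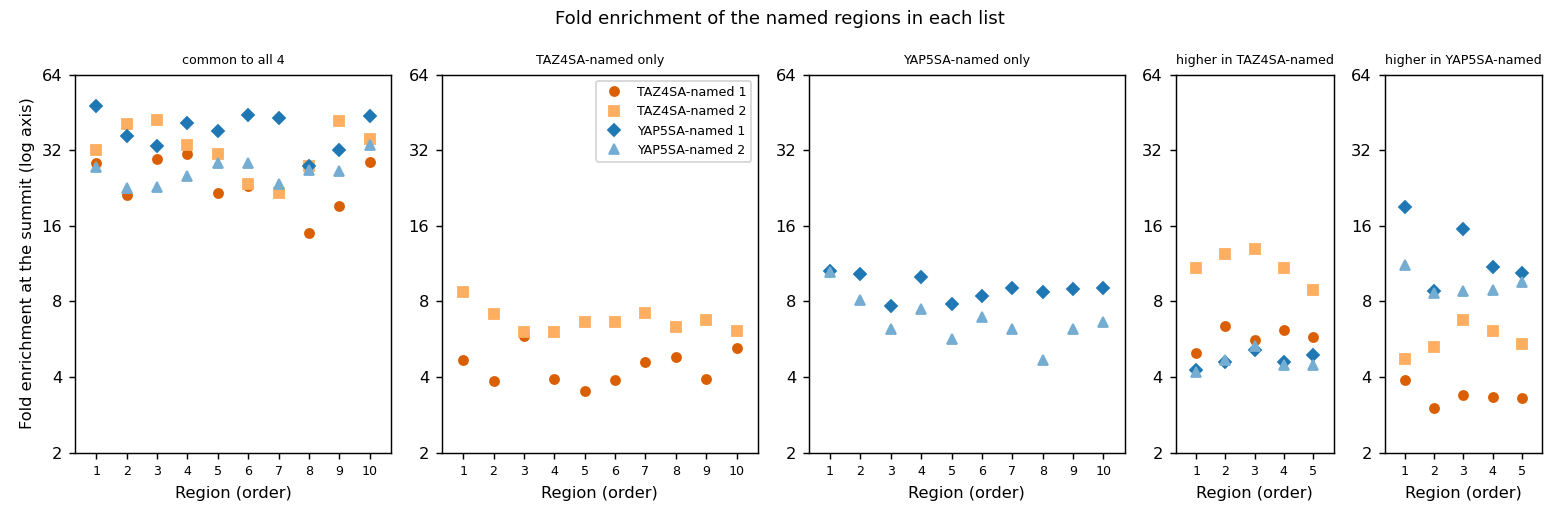
Fold enrichment at the summit (log axis) in each of the 4 lists for the 10 common regions with the best worst rank, the 10 leading regions of each paralog without any peak of the other, and the 5 common regions in each direction with the widest gap in rank. The leading common regions lie between 14.9 and 48.1 in every list, while the regions of a single paralog lie between 3.51 and 10.6. All sets were chosen by rank, so that this contrast follows from the choice.

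Of all 27591 regions, 1527 (5.53%) had no peak in any of the 10 other lists of the series, and 1136 of these were held by 1 of the 4 top lists. By the same criterion there were 22 of 486 TAZ4SA-named only regions (4.53%), 112 of 1053 YAP5SA-named only regions (10.6%) and 51 of 12258 common regions (0.416%). When a weaker peak of the other paralog was also barred, 3 TAZ4SA-named only regions had no peak in any of the other 12 lists, and 45 YAP5SA-named only regions had none. Without TAZ4SA-named replicate 1 these counts were 62 and 53, and without TAZ4SA-named replicate 2 they were 323 and 156, where the TAZ4SA-named count came from a single list. The 3 TAZ4SA-named ones were chr10:134479790-134480530, chr2:221370150-221370789 and chr12:122429849-122430777, with folds from 3.60 to 4.79 in replicate 1 and from 5.91 to 7.39 in replicate 2. The strongest of the 45 by worse rank was chr7:29339856-29341132, at ranks 12512 and 12578 with folds of 6.58 and 5.77. These were chosen after their values were seen. The 3 and the 45 were sought against lists of 5721 to 102009 peaks.

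The other 10 lists held regions of one paralog unevenly. A TAZ4SA-named only region had a peak in a median of 7 of the other 10 lists, a YAP5SA-named only region in 6 and a common region in 9. The lists with EV in their peak names, titled TAZ4SA and the longest of the series, held 92.0% and 92.4% of the TAZ4SA-named only regions and 77.2% and 76.4% of the YAP5SA-named only regions. Their median rank was 14223 and 15052 in the former and 21974 and 23917.5 in the latter. The lists with TFE3 in their peak names, titled YAP5SA, held 59.1% and 51.9% of the TAZ4SA-named only regions and 43.0% and 42.7% of the YAP5SA-named only regions. In 9 of the 10 other lists the share was larger for the TAZ4SA-named only regions. The difference between the classes was not tested, and a list without a peak is not shown to lack acetylation.

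Within the common regions, ranks of the paralogs that did not overlap were counted. In 1885 regions (15.4%) both TAZ4SA-named ranks were better than both YAP5SA-named ranks, and in 2212 (18.0%) the reverse held. Together these were 4097 regions, or 33.4% of the 12258 common ones. Of the 6 possible orders of 2 and 2 ranks, 2 leave the paralogs without overlap, so that shares of this size need no difference between paralogs. The regions called TAZ4SA-higher and YAP5SA-higher are therefore described only, and none is shown to differ. Read without TAZ4SA-named replicate 1, TAZ4SA-named replicate 2 ranked above both YAP5SA-named lists in 4457 (36.4%) and below both in 4440 (36.2%) of the same regions. Read without TAZ4SA-named replicate 2, TAZ4SA-named replicate 1 ranked above both in 4084 (33.3%) and below both in 4824 (39.4%). The median fold of TAZ4SA-higher regions was 6.31 and 12.7 in the TAZ4SA-named lists and 8.05 and 6.63 in the YAP5SA-named lists. The median fold of YAP5SA-higher regions was 4.74 and 9.45 in the TAZ4SA-named lists and 12.1 and 9.59 in the YAP5SA-named lists. These values describe regions chosen for their ranks and are no test.

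The TAZ4SA-higher region with the widest gap in rank was chr20:49808915-49811802 (2888 bp). Its ranks were 8192 and 6838 in the TAZ4SA-named lists and 21251 and 20929 in the YAP5SA-named lists, with folds of 4.98, 10.85, 4.26 and 4.17. The next, chr1:7831187-7832225 (1039 bp), had ranks of 5903, 7119, 18880 and 21465 with folds of 6.37, 12.4, 4.59 and 4.66. In fold, both TAZ4SA-named lists were above the YAP5SA-named lists at both regions, replicate 1 by less than replicate 2. Folds are not on a single scale between lists. Their median at common regions was 5.59 and 11.4 in the TAZ4SA-named lists and 10.3 and 8.17 in the YAP5SA-named lists.

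The gap in rank between the paralogs was 10397 to 12737 at the first 5 TAZ4SA-higher regions and 10994 to 12030 at the first 5 YAP5SA-higher regions. At chr15:73678519-73682899 (4381 bp) the ranks were 14658 and 18691 in the TAZ4SA-named lists and 2182 and 2628 in the YAP5SA-named lists, with folds of 3.89, 4.72, 18.9 and 11.1. At chr5:6435459-6441665 (6207 bp) the ranks were 18572, 16142, 4116 and 3417, with folds of 3.02, 5.27, 8.78 and 8.61. At chr11:71854375-71858125 (3751 bp) they were 17004, 16753, 2710 and 5551, with folds of 3.39, 6.74, 15.6 and 8.78. At all 3 regions both YAP5SA-named folds were above both TAZ4SA-named folds. The regions were chosen for their gap in rank, and folds are low throughout TAZ4SA-named replicate 1. The regions had a peak in 7, 7 and 2 of the other 10 lists.

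Lists that took no part in the ranking also placed these regions differently. In 9 of the other 10 lists the median rank of the TAZ4SA-higher regions was better than that of the YAP5SA-higher regions. In the EV-named lists it was 5327 against 8880 and 5502 against 8785, where all common regions had 6260.5 and 6434.5. In the TFE3-named lists it was 5748 against 7557 and 6382 against 7013, where all common regions had 6123 and 6180. The TAZ4SA-higher regions were thus close to all common regions in several lists, as in the TC-named lists with 6563.5 and 6235.5 against 6266 and 6094, and the YAP5SA-higher regions, at 7105 and 6896 there, were weaker. The exception, at 2545 against 2452, was the first YT-named list, titled TFE3 and the shortest of the series with 5721 peaks. The difference was not tested.

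The classes differed in width. The median width was 3246 bp for common regions, 1468 bp for TAZ4SA-named only and 1637 bp for YAP5SA-named only regions, against 1943 bp over all regions. A region held by more lists is the union of more peaks, which widens it by construction. Among common regions, the TAZ4SA-higher ones had a median width of 2828 bp and the YAP5SA-higher ones of 3935.5 bp. In the narrowest of 4 equal groups of common regions (337 to 2138 bp), 19.8% were TAZ4SA-higher and 12.5% YAP5SA-higher. In the widest group (5224 to 43780 bp) the shares were 11.0% and 24.2%. The balance turned between the second and the third group. TAZ4SA-named replicate 1 covered a median of 40.4% of a common region, against 90.2%, 88.8% and 66.3% in the other lists. Read without that list, the shares were 41.9% and 29.8% in the narrowest group and 29.0% and 44.3% in the widest, in the same order.

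**Figure D5:**
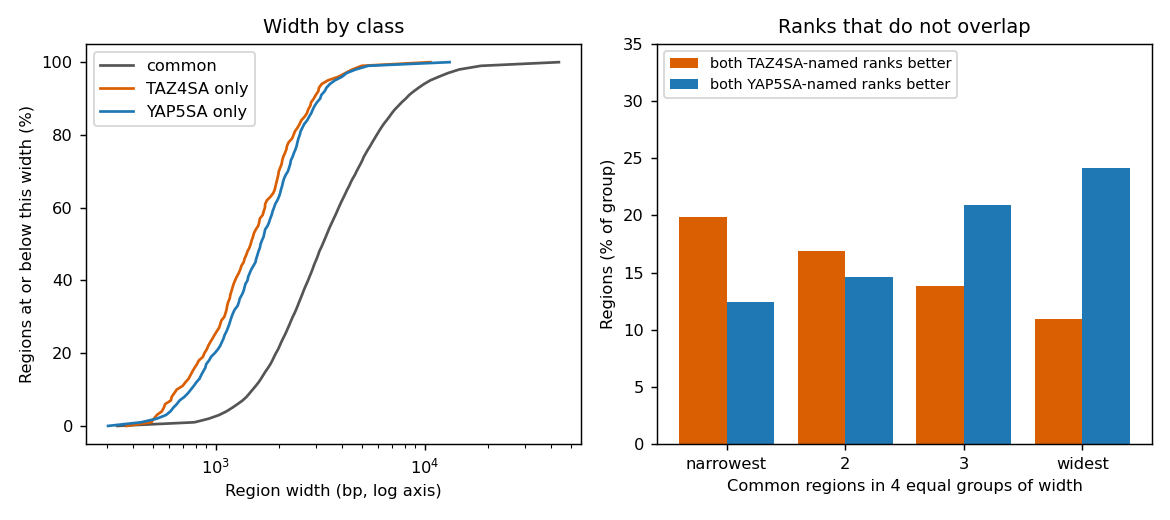
Left, cumulative share of regions (%, y axis) by width (bp, log axis) for common regions, TAZ4SA-named only and YAP5SA-named only regions. Right, the share of common regions in each of 4 equal groups of width with both TAZ4SA-named ranks better (orange, falling from 19.8% to 11.0%) or both YAP5SA-named ranks better (blue, rising from 12.5% to 24.2%).

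The shares also varied by chromosome, which was not tested. Chromosomes 19 and 18 were picked after the values were seen, with the highest and the lowest share of TAZ4SA-higher regions. On chromosome 19, 119 common regions (22.6%) were TAZ4SA-higher and 68 (12.9%) YAP5SA-higher. On chromosome 18 the counts were 25 (10.3%) and 58 (24.0%). Without TAZ4SA-named replicate 1 the shares were 45.4% and 29.1% on chromosome 19 and 24.4% and 43.0% on chromosome 18. YAP5SA-higher regions were the more frequent on 20 of 23 chromosomes, the exceptions being 16, 19 and X. The median rank of common regions on chromosome 19 was 6716 and 5630 in the TAZ4SA-named lists and 7736.5 and 6538.5 in the YAP5SA-named lists, so that the 2 names overlapped there. Chromosome 19 is known as rich in genes and in G and C bases. Base composition and gene density were not measured here, and their part was not tested.

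Regions of one paralog lay about as far from common regions as common regions from each other, or farther. The median distance to the nearest common region was 28.8 kb for TAZ4SA-named only, 43.6 kb for YAP5SA-named only and 28.1 kb for common regions. More than 100 kb lay between 23.5%, 30.4% and 19.5% of them, in this order, and the nearest common region. YAP5SA-named only regions were the most remote of the 3 classes.

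Some of the regions of one paralog lay close together. They were chosen after their positions were seen. On chromosome 20, 6 of 24 regions between 9 and 10 Mb were TAZ4SA-named only, from 9062647 to 9330862. Their folds ran from 2.67 to 3.51 in replicate 1 and from 5.20 to 9.83 in replicate 2. The first of them had no YAP5SA-named peak at any rank, and the other 5 had a weaker peak in both YAP5SA-named lists. Farther along, between 42 and 43 Mb, 6 of 24 regions were YAP5SA-named only, from 42544071 to 42807800. Their folds ran from 4.54 to 7.64 in replicate 1 and from 4.08 to 6.54 in replicate 2. In TAZ4SA-named replicate 2, 5 of the 6 had a weaker peak.

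Runs of 3 neighbouring regions of one paralog, with no other region between, were found 4 times among the YAP5SA-named only regions (3.82% of all regions). None was found among the TAZ4SA-named only regions, which are fewer (1.76%), and no difference is read from these counts. The run at chr5:35453330-35480175 spanned 26.8 kb. Its members had folds of 4.29, 4.75 and 6.19 in YAP5SA-named replicate 1 and of 6.41, 8.87 and 4.21 in replicate 2. The first of them had no TAZ4SA-named peak at any rank, and the first and second had no peak in any of the other 10 lists. At chr16:56402490-56419311 all 3 members had a weaker peak in TAZ4SA-named replicate 2 and a peak in 8 to 10 of the other 10 lists.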

How the data were processed

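H3K27ac ChIP-seq of SW872 cells was deposited as 1 peak list per library, and 14 input samples were not analysed here. Per the labels and the methods, the authors trimmed reads with Atropos, aligned them to GRCh37/hg19 with BWA, dropped greylist regions and reads with several alignments, and called peaks with MACS2. Versions of BWA and MACS2 are not given in the sources used here. The methods describe pooled replicates, whereas the lists are separate for each library, with a q-value of at most 0.05. The methods name 2 ways of sonication without tying them to libraries, and the extraction text of the labels describes a Flag precipitation while the antibody is given as H3K27ac.

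The deposited columns used were the fold enrichment (the ratio of summit signal to local background, computed by the authors), the −log10 p and the −log10 q of the peak caller, and the summit position. From fold and −log10 p, the fragments and background at the summit were solved, and came out whole within 0.01 of −log10 p in at least 99.99% of peaks. Library depth is not given in the lists, and fragments at the summit do not stand in for it. The median background solved at the summits was 3.02 fragments in TAZ4SA-named replicate 1 and 2.25 in replicate 2. It was 3.19 and 2.71 in YAP5SA-named replicates 1 and 2. The list with the fewest summit fragments thus did not have the lowest background. Missing peaks are not shown to lack acetylation.

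Peaks were ranked by −log10 p, ties by fold and then position. In YAP5SA-named replicate 2, 463 peaks were tied at the limit and 287 of them were kept. Regions were merged from the top peaks of the 4 lists (minimum overlap 1 bp). Named regions were the 10 common regions with the best worst rank, the 10 of each paralog with no peak of the other and the best worse rank, and the 5 in each direction with the widest gap in rank. The p-values came from an exact permutation test over 3 pairings of lists. Members and lists were chosen with earlier results of these data known. Overlap, presence and rank functions were tested on simulated data and gave the known answer in 20 of 20 draws. Python 3.11.15, numpy 2.4.6, pandas 2.3.3, scipy 1.17.1 and matplotlib 3.10.9 were used. No annotation of GRCh37 was used, so that regions carry no gene names, planned gene lists and cell markers were not run, and no sequence is printed. The alternatives were other numbers of peaks, ranking by fold, a limit on q, primary chromosomes, stitching, equal windows, a minimum cover, the 4 lists titled TAZ4SA and YAP5SA instead, each list left out and a replicate block.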

Additional observations from a re-analysis of the deposited data

How the results depend on the processing

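Counts depended on how many peaks were taken. Regions common to all 4 lists numbered 12258, and 10086 to 14599 with all peaks, a −log10 q of at least 5, ranking by fold, primary chromosomes, stitching or summit windows. The count was 5850 with the top 10000 peaks and 3460 when peaks had to cover 50% of a region, and 12950 to 14600 with a list left out. TAZ4SA-named only regions (486) became 146 with all peaks, 74 with a −log10 q of at least 5, and 256 with 50% cover, and 946 to 2779 with a list left out. YAP5SA-named only regions (1053) became 2505 with all peaks, and 478 with the top 10000 peaks (353 for TAZ4SA-named only), and 1585 to 3528 with a list left out. Each list left out raised both counts of regions of one paralog, since fewer lists must then hold or lack a region. Without TAZ4SA-named replicate 1 the TAZ4SA-named and YAP5SA-named counts were 2779 and 1585, and without TAZ4SA-named replicate 2 they were 2362 and 3528, each from 1 list against 2 lists.

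The overlap within minus between paralogs (−0.022) was 0.0046 (exact permutation p = 0.333) with summit windows, 0.0507 (exact permutation p = 0.333) as the share of the smaller list, chosen after seeing the data, and −0.135 to 0.17 with a list left out. The cause was not tested. The rank difference (0.0082) ran from −0.0745 to 0.0802 with a list left out. Grouping by the GEO titles takes 4 other lists (EV-named and TFE3-named), none of those above, and is a comparison of other samples. It gave 13110 common regions, 2409 of the lists titled TAZ4SA only, 476 of those titled YAP5SA only, an overlap difference of 0.303 and a rank difference of 0.173 (exact permutation p = 0.333 for both). Deviations of the lists numbered 1 from the mean of their name correlated by 0.107 over 12258 common regions. With 2 lists per name, the lists numbered 2 give the same value. The numbers were therefore not taken as pairing. With a replicate block on these numbers, the overlap difference was 0.0102 (exact permutation over 2 pairings, p = 1) and the rank difference −0.0079 (exact permutation p = 0.5). Shares of regions at promoters could not be computed without a GRCh37 annotation.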

Other observations

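Among the 4 lists, some peaks rose over a high background. A background of more than 20 fragments at the summit was found at 16 peaks of TAZ4SA-named replicate 1, 1 of TAZ4SA-named replicate 2, 3 of YAP5SA-named replicate 1 and 5 of YAP5SA-named replicate 2. The highest had 1438 fragments at a fold of 1.35 on the sequence GL000199.1 in TAZ4SA-named replicate 1, where it ranked 1952 by −log10 p. In YAP5SA-named replicate 2 a peak of 783 fragments at a fold of 1.25 lay on GL000226.1. The counts on chromosomes 1 to 22 and X differed by at most 7 regions in any class.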
